A study of Mus musculus with 11 samples.

Results

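The A384T form of FoxP3 was compared with wild-type (WT) FoxP3 across the whole transcriptome of retrovirally transduced mouse CD4 T cells. The members were the 3 arrays titled as A384T and the 3 titled as WT, which make 6 of the 11 arrays of the series, and all 45037 probe sets that are not array controls. The other arrays were 2 of R397W FoxP3, a further mutant form, and 3 of cells given the empty MIGR1 vector, called mock here. All 4 groups came from naive CD4+ CD25- CD45RB(high) T cells of BALB/cA mice, taken from lymph nodes and spleen. The cells of every group were stimulated with 0.5 ug/ml of an antibody to CD3e and 10 ng/ml of IL-2, in the presence of T cell-depleted spleen cells irradiated with 20 Gy, and were infected 24 hr later. On day 7, CD4+ cells with high GFP, the marker of the vector, were sorted and their RNA was hybridised. The ages of the mice and the number of animals behind an array are not given in the sources used here.

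FoxP3 is the forkhead transcription factor that defines regulatory T (Treg) cells, which restrain immune responses, and its forced expression gives conventional CD4 T cells part of the Treg programme. It lowers cytokine genes of activated T cells and raises surface molecules such as CD25 (Il2ra) and CTLA-4. Mutations of human FOXP3 cause IPEX, an inherited autoimmune disease, and the forkhead domain, in which A384T lies, contacts DNA. As a model the design has limits that all arrays share: FoxP3 was driven by a retroviral vector, the recipient cells kept their own Foxp3 gene, and only cells with high vector marker were measured.

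The deposited values are log2 differences from the median of the mock arrays, so 0 marks the mock level of each probe set and the level of a transcript cannot be read from them. For the same reason the values cannot show whether the cells were T cells: 0 of 7 T cell markers measured were called between A384T and WT, and 0 of 5 markers of CD8, NK and gamma-delta T cells, 6 of B cells, 7 of granulocytes and mast cells, 6 of erythroid cells and platelets, and 8 of fibroblasts and endothelium. Among 9 macrophage and dendritic cell markers, Fcgr3 was lower in A384T by the second of the 2 fits described next (-0.78, limma adjusted p = 0.0394 with the block and 0.512 without it). Leaving out 1 array took the blocked adjusted p of Fcgr3 to 0.201. Of all genes, 0.203% were called without the block and 0.907% with it. Counts of 0 among so few markers therefore say nothing particular of them, nor of the cell types present. In bulk RNA, fewer cells of a type and less RNA per cell cannot be told apart. Array medians lay between -0.016 and 0.0019 in these values, which the submitters had already normalised and centred. They cannot show whether an array was shifted as a whole before that. Arrays with the same number in their titles tended to move together: deviations from the group means correlated between A384T and WT at 0.72, 0.18 and 0.47 over all probe sets for numbers 1, 2 and 3. Between unlike numbers the correlations ran from -0.61 to 0.28, the highest for A384T array 2 with WT array 3. Deviations within a group sum to 0 in each probe set. A positive correlation for like numbers therefore brings negative ones among unlike numbers by construction. The arrays numbered 1 stood apart in cell cycle genes, whose median was 1.33, 0.53 and 0.15 in A384T arrays 1, 2 and 3, against 1.77, 0.37 and 0.35 in WT arrays 1, 2 and 3. None of these 30 genes was called between the groups, which at the same shares of all genes says nothing particular of them. The part of these array differences in the results below was not tested.

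Fits of 2 kinds with limma were therefore set side by side: group means alone, over all 11 arrays, and the same with the array number as a block. A probe set was called where its p, adjusted over all 45037 by the method of Benjamini and Hochberg, was under 0.05. Each SE given after ± is that of the limma fit without the block. It uses a spread estimated over all 11 arrays and moderated across probe sets, not the 3 arrays of each form alone. Nothing in the labels ties the arrays of 1 group to different cultures or mice. The p-values therefore rest on array-to-array spread that may be technical in part, and 3 arrays a group limit the precision.

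Foxp3 itself is measured by 1 probe set. It stood at 0.33, 0.10 and 0.30 in the A384T arrays, against -0.07, -0.0038 and 0.11 in the WT arrays, -0.19 and -0.39 in the R397W arrays, and 0.00, -0.34 and 0.26 in the mock arrays. The A384T and WT ranges overlapped, and the difference of 0.23 ± 0.15 (SE, n = 3 each) was not called (limma, adjusted p = 1 without the block and 0.684 with it). Against mock, neither A384T (0.27, adjusted p = 0.579) nor WT (0.04, adjusted p = 0.976) was called by this probe set, and the sources used here do not give its place on the transcript, so it does not check the labels of the transduced groups.

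Few probe sets differed between A384T and WT cells. The difference between them had a median of 0.0041 and a median size of 0.0923 on the log2 scale over all probe sets, and 129 probe sets differed by more than 2-fold, 57 of them higher in A384T and 72 lower. Without the block, 20 probe sets were higher in A384T (0.0444% of those tested) and 26 lower (0.0577%), which together make 46 (0.102%). In genes named by a single symbol this was 17 higher (0.0934% of 18193 genes) and 20 lower (0.11%). With the block, 111 probe sets were higher (0.246%) and 121 lower (0.269%), in 82 (0.451%) and 83 (0.456%) genes, 165 in all (0.907%), and the earlier 46 were all among these 232 (0.515%). For scale, A384T against mock gave 976 calls (2.17%) without the block and 3303 (7.33%) with it, and WT against mock 1198 (2.66%) and 3438 (7.63%); these share the mock arrays. None of the 46 overlapped between the 3 A384T and 3 WT arrays, a property that 3359 of all probe sets (7.46%) had. All 232 had the same sign in each of the 3 array numbers. The fit with the block favours such probe sets, so this is no separate support for them. At the threshold itself, Rassf4 and 4930486L24Rik lay just inside, with adjusted p of 0.049 and 0.0489, and a probe set of no single gene and Flot2 lay just outside at 0.0522 and 0.0583.

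The calls rested on few arrays. Leaving out any of the 6 arrays in the fit without the block left 5 to 14 probe sets higher and 6 to 12 lower, and 8 of the 46 were called in all 6 of these fits, among them those of Mpzl2, P2ry14, Gpld1, Nt5e and Sgk1. With the block, the same left 38 to 116 higher and 53 to 202 lower, and 66 of the 232 were called every time. Without all arrays of 1 number, the counts were 0 higher and 2 lower for number 1, 0 and 0 for number 2, and 2 and 1 for number 3. With the block they were 10 and 17, 37 and 55, and 47 and 48. For other genes called without the block, the highest adjusted p among fits without 1 array is given below where the gene is described.

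**Figure D1:**
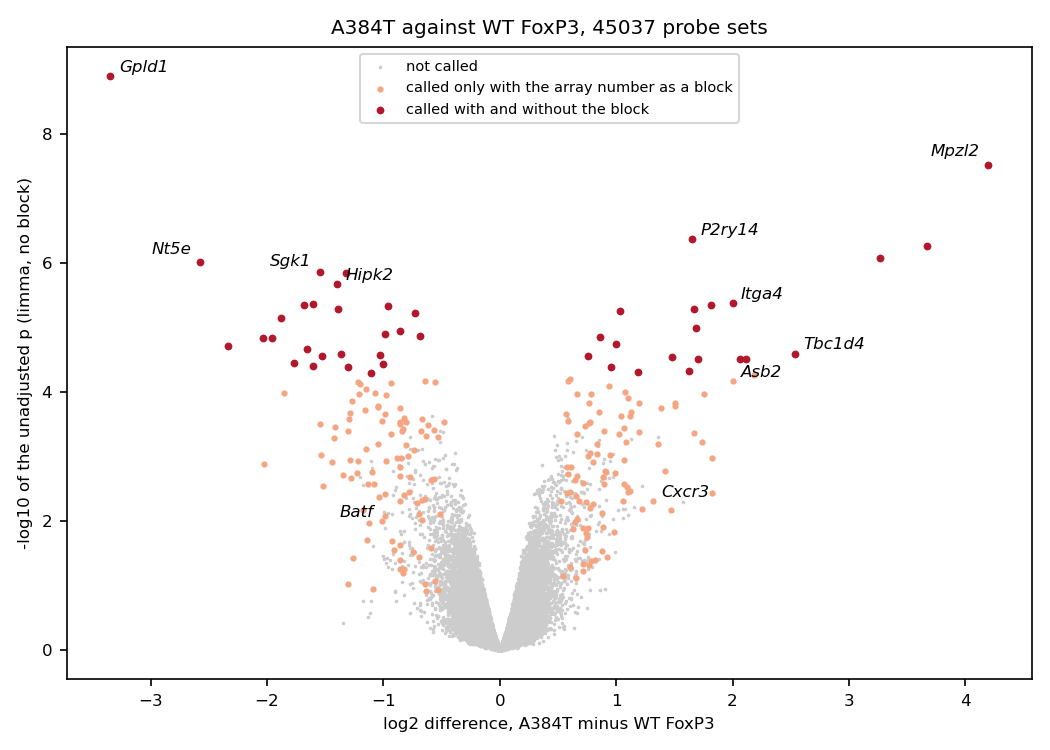
Each point is a probe set. The x axis is the log2 difference, A384T minus WT, and the y axis is -log10 of the unadjusted p from limma without the block. Red points were called in both fits, and orange points only with the array number as a block, many of them with large differences but low ranks on the y axis. Mpzl2 at 4.20 and Gpld1 at -3.35 lie farthest out.

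The largest rise was in Mpzl2, which encodes an immunoglobulin-family adhesion molecule also known as EVA1. It stood at 4.79, 5.45 and 4.16 in the A384T arrays (values are always given for arrays 1, 2 and 3), against 0.55, 0.86 and 0.40 in the WT arrays and -0.06 and 0.47 in the R397W arrays. Every A384T array lay more than 3 log2 units above every WT array. The difference was 4.20 ± 0.28 (SE, n = 3 each; limma, adjusted p = 0.000676), which is 18.3-fold, and the other 2 probe sets of the gene were called too, at 3.68 and 3.27. Relative to mock, A384T was 4.79 higher (adjusted p = 4.12e-05), while the WT difference from mock was 0.59 (adjusted p = 0.475).

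A further 7 genes shared this position, with A384T above mock and WT near it: Car2, Marchf3, Synpo, Ctla2a, Esr1, Aqp9 and Synj2. Car2, a carbonic anhydrase, stood at 2.20, 1.71 and 1.69 in A384T arrays, against -0.07, 0.23 and -0.01 in WT arrays (difference 1.82 ± 0.21, limma adjusted p = 0.0145). Marchf3, a membrane-bound ubiquitin ligase, stood at 1.94, 2.10 and 1.45 in A384T arrays, against 0.14, 0.21 and 0.14 in WT arrays (1.67 ± 0.19, adjusted p = 0.0145). Synpo, an actin-associated protein, stood at 2.04, 2.59 and 1.60 in A384T arrays, against 0.34, 0.51 and 0.31 in WT arrays (1.69 ± 0.21, adjusted p = 0.0227). In these genes the 3 WT arrays all lay below 0.6, and the lowest A384T array was well above them. Ctla2a, an inhibitor of cathepsin-type proteases, stood at 1.44, 1.14 and 1.16 in A384T arrays, against -0.25, -0.64 and -0.47 in WT arrays (1.70 ± 0.24, adjusted p = 0.037). Esr1, the oestrogen receptor alpha, stood at 0.99, 1.09 and 1.32 in A384T arrays, against 0.00, 0.12 and 0.29 in WT arrays (1.00 ± 0.13, adjusted p = 0.0303). Groups did not overlap in either gene. The other 2 probe sets of Esr1 showed 0.01 and 0.27, and the other probe set of Synpo showed 0.16, none of them called in either fit. Aqp9, a channel for water and glycerol, was higher by 0.76 (adjusted p = 0.0363) and Synj2, an inositol phosphatase, by 0.86 (adjusted p = 0.0251). Of the 6 probe sets of Synj2, 5 had a positive sign, and 1 was called in each fit. Without 1 array the highest adjusted p was 0.154 for Aqp9, 0.109 for Synj2, 0.0678 for Car2, 0.0718 for Marchf3, 0.0929 for Synpo, 0.188 for Ctla2a and 0.13 for Esr1, while with the block all but Aqp9 (up to 0.0568) were called whichever array was left out.

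In the other rises, WT FoxP3 lay below mock and A384T lay nearer to it or above it. The widest was Tbc1d4, a Rab GTPase-activating protein of glucose transporter traffic, at -1.15, -0.46 and -0.46 in A384T arrays, against -3.70, -3.63 and -2.34 in WT arrays. The difference was 2.54 ± 0.35 (limma, adjusted p = 0.0363), or 5.82-fold, and the WT difference from mock was -3.04 (adjusted p = 0.00123), against -0.50 for A384T (adjusted p = 0.703). Itga4 encodes the alpha4 integrin chain that guides T cells to inflamed tissue. It stood at 0.22, 0.43 and -0.06 in A384T arrays, against -1.95, -1.26 and -2.20 in WT arrays, so that A384T lay around mock and WT clearly below it (2.00 ± 0.22, adjusted p = 0.0145). All 5 probe sets of Itga4 had the same sign, the smallest difference at 0.07, and 3 were called with the block. AA467197 stood at 1.02, 1.30 and 0.59 in A384T arrays, against -0.75, -1.73 and -0.82 in WT arrays (2.07 ± 0.29, adjusted p = 0.037). Evi2a stood at 0.50, 0.63 and 0.37 in A384T arrays, against -0.65, -0.61 and -0.33 in WT arrays (1.03 ± 0.12, adjusted p = 0.0145). In both, A384T arrays lay above the mock median and WT arrays below it. Against mock without the block, AA467197 was called in neither A384T (0.85, limma adjusted p = 0.241) nor WT (-1.22, adjusted p = 0.0611). Evi2a was called in WT (-0.53, adjusted p = 0.0488) but not in A384T (0.51, adjusted p = 0.066). The other probe set of Evi2a showed a difference of 0.25, not called, with means of -1.01 in A384T and -1.26 in WT. Without 1 array the highest adjusted p was 0.168 for Tbc1d4, 0.0671 for Itga4, 0.163 for AA467197 and 0.0765 for Evi2a, and all 4 stayed called with the block.

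P2ry14, a receptor for UDP-glucose and related sugars, had the lowest adjusted p among these rises. It stood at 0.45, 0.38 and 0.31 in A384T arrays, against -1.05, -1.64 and -1.13 in WT arrays, with R397W at -0.16 and 0.02. The WT arrays alone lay more than 1 below mock. The difference was 1.65 ± 0.15 (limma, adjusted p = 0.00621), and it was called without any of the 6 arrays. The window ahead of a start of P2ry14 is shown because it holds the forkhead core TGTTTAC, in capitals, at positions -208 to -202 counted from the start. It is chr3:59131119-59131368 on the minus strand of GRCm38.p6, as given by RefSeq for 1 of 4 annotated starts, printed 5′ to 3′ up to the base before the start.
P2ry14: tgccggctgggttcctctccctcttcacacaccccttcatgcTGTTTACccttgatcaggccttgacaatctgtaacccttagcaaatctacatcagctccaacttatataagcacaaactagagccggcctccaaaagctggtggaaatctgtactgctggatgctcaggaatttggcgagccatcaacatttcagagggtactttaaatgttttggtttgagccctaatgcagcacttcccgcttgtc
The forkhead core, searched as TGTTTAC on both strands, occurred in 3.65% of 32851 windows of 300 bases around annotated starts, 250 before and 50 after. It occurred in 4.55% of 88 windows of genes called higher in either fit and in 5.31% of 113 windows of genes called lower.

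**Figure D2:**
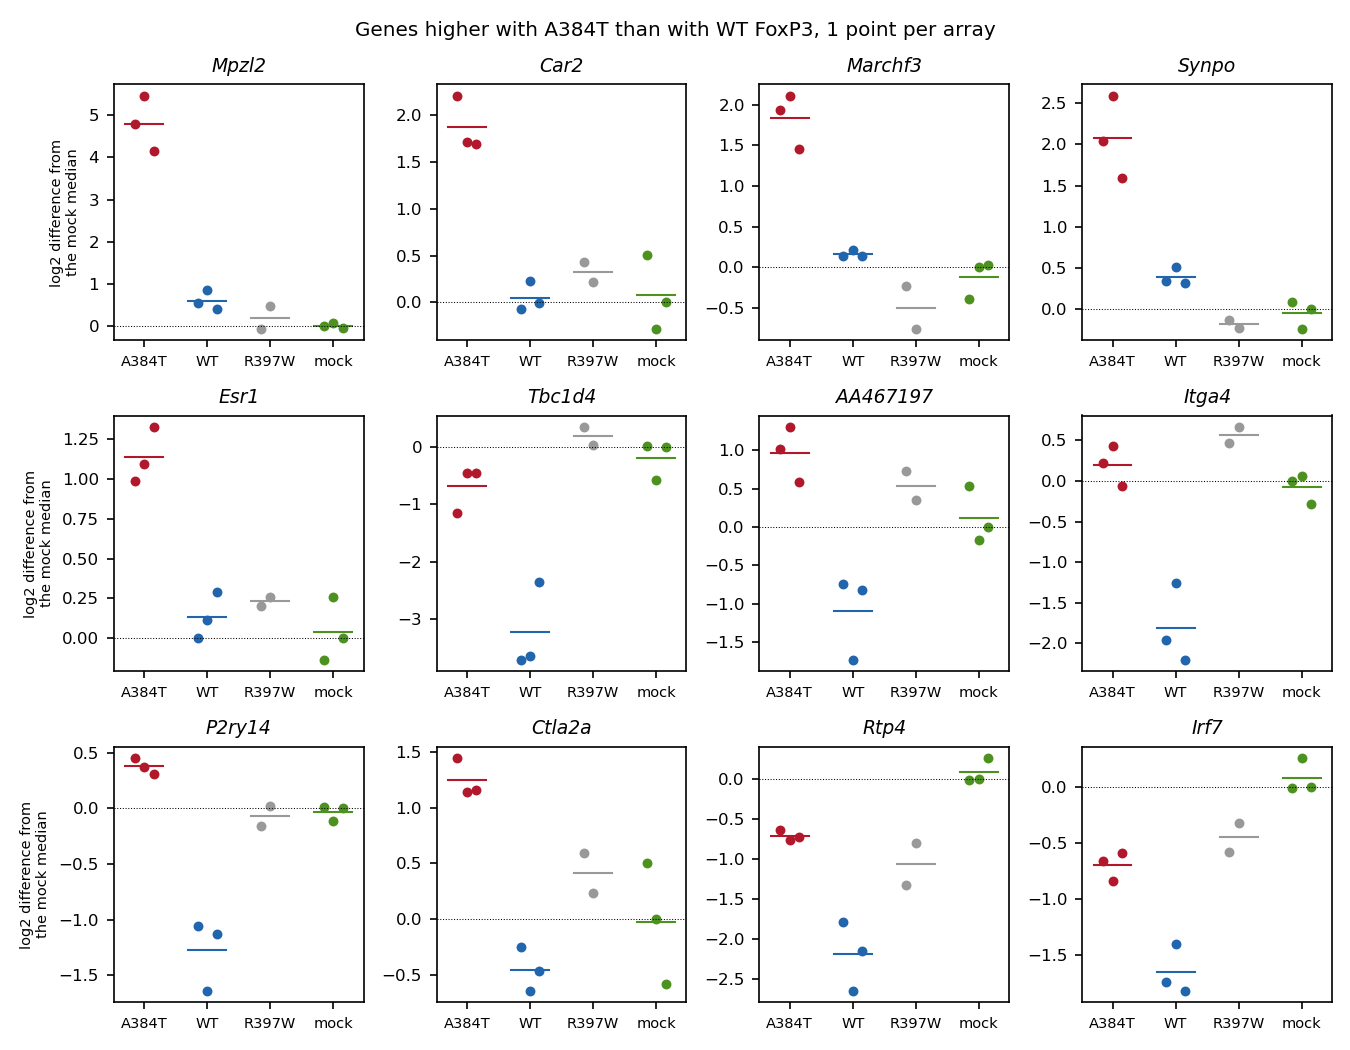
The 12 panels show genes called higher with A384T than with WT. Each point is an array and each line a group mean, for A384T, WT, R397W and mock from left to right; the y axis is the log2 difference from the mock median, with its own scale in each panel. In Mpzl2, Car2, Marchf3, Synpo and Esr1 the A384T points leave the other 3 groups, while in Tbc1d4, Itga4, P2ry14, Rtp4 and Irf7 the WT points lie lowest.

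The largest fall was in Gpld1, which encodes a phospholipase D that cleaves glycosylphosphatidylinositol (GPI) anchors. It stood at -0.19, -0.08 and -0.37 in A384T arrays, against 3.26, 3.39 and 2.75 in WT arrays, with R397W at -0.26 and -0.09. A384T arrays lay at or just below mock and WT arrays near 3. The difference was -3.35 ± 0.16 (SE, n = 3 each; limma, adjusted p = 5.68e-05), so WT was 10.2-fold higher, and it was called without any of the 6 arrays. Next was Nt5e, the gene of CD73, a surface enzyme that turns AMP into adenosine. It stood at 0.85, 1.16 and 0.85 in A384T arrays, against 3.70, 3.38 and 3.51 in WT arrays, again without overlap (-2.57 ± 0.25, adjusted p = 0.00737). Relative to mock, Nt5e was 0.90 higher in A384T (adjusted p = 0.117) and 3.48 higher in WT (adjusted p = 8.98e-05). Another probe set of Nt5e fell by 1.22 with the block (adjusted p = 0.00105, against 0.0598 without it), and the third showed -0.04.

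A further 10 genes shared this position, above mock in WT and near mock or part of the way in A384T. B3galnt1, a glycosyltransferase of globoside synthesis, stood at 0.19, 1.33 and 0.43 in A384T arrays, against 3.03, 2.43 and 2.60 in WT arrays (-2.04 ± 0.26, limma adjusted p = 0.0251). Cyp11a1, the mitochondrial enzyme that starts steroid synthesis from cholesterol, stood at 1.11, 0.29 and 0.07 in A384T arrays, against 2.44, 2.13 and 2.21 in WT arrays (-1.77 ± 0.25, adjusted p = 0.0403). A384T array 2 was the highest of its group for B3galnt1 and array 1 for Cyp11a1, and neither reached a WT array. Fdx1, the ferredoxin that passes electrons to that enzyme, fell by 0.73 (adjusted p = 0.0148, and up to 0.0765 without 1 array). Of the 3 probe sets of Cyp11a1, 1 had the opposite sign, at 0.11. Pglyrp1, a secreted protein that binds bacterial peptidoglycan, stood at -0.76, -0.35 and -0.35 in A384T arrays, against 0.99, 1.39 and 1.20 in WT arrays (-1.68 ± 0.19, adjusted p = 0.0145). Ell2, an elongation factor of RNA polymerase II, stood at 0.82, 1.22 and 0.67 in A384T arrays, against 2.35, 2.90 and 2.27 in WT arrays (-1.60 ± 0.18, adjusted p = 0.0145). Of these 2, Ell2 was still above mock in A384T, by 0.97 (adjusted p = 0.0225), and Pglyrp1 was not (-0.47, adjusted p = 0.359). The other probe set of Ell2 showed -0.12. Hipk2, a nuclear protein kinase, stood at 0.28, -0.12 and -0.06 in A384T arrays, against 1.58, 1.52 and 1.20 in WT arrays (-1.40 ± 0.15, adjusted p = 0.0107). All 8 probe sets of Hipk2 had a negative sign, the smallest difference at -0.01, and 4 were called with the block. The secreted protein gene Adamtsl4 fell by 1.60, 1110032F04Rik by 1.39, the apoptosis inhibitor gene Aven by 0.96 and the Rag GTPase gene Rragd by 0.86 (adjusted p = 0.0436, 0.0145, 0.0145 and 0.0246). Of the 3 probe sets of Rragd, 2 had a negative sign, and 1 was called in each fit. Without 1 array the highest adjusted p was 0.207 for Adamtsl4, 0.0696 for 1110032F04Rik, 0.0718 for Aven, 0.115 for Rragd, 0.111 for B3galnt1, 0.193 for Cyp11a1, 0.0718 for Pglyrp1, 0.056 for Ell2 and 0.0521 for Hipk2. With the block Rragd and Fdx1 lost the call without 1 of the arrays (0.0507 and 0.0555), and the others were called every time.

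Klf9, a Krüppel-like transcription factor, belongs to the same group. It stood at -0.36, 0.14 and -0.25 in A384T arrays, against 1.19, 0.89 and 1.36 in WT arrays, so A384T lay around mock and WT above it (-1.30 ± 0.19, limma adjusted p = 0.0436). The highest adjusted p without 1 array was 0.199, and 0.0714 with the block. All 7 probe sets had a negative sign, from -0.0066 to -1.31, and 1 was called without the block and 3 with it. The window ahead of its start is shown because the forkhead core lies in it near a match to TGANTCA. That is a loose form of the AP-1 core, searched with any base in the middle, and the middle base here is A. Whether an AP-1 factor binds this match was not tested. The window is chr19:23140976-23141225 on the plus strand of GRCm38.p6, from RefSeq. Its capitals mark the forkhead core on the reverse strand, at positions -100 to -94, and the TGANTCA match, at -89 to -83.
Klf9: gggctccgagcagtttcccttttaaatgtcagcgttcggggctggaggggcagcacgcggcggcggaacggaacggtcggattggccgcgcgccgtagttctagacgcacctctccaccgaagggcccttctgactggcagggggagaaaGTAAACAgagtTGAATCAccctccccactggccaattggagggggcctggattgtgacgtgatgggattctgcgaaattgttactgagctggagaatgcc
The pattern TGANTCA, which reads the same on both strands, occurred with any middle base in 7.81% of all windows. It occurred in 11.4% of those of genes called higher in A384T and in 7.08% of those of genes called lower.

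In a smaller set A384T lay below mock, and WT lay nearer to it. Sgk1, a kinase induced by serum, salt and glucocorticoids, stood at -1.35, -1.73 and -1.27 in A384T arrays, against 0.03, 0.07 and 0.20 in WT arrays. The 3 WT arrays were near mock and all A384T arrays more than 1 below it. The difference was -1.55 ± 0.15 (limma, adjusted p = 0.00808) and was called without any of the 6 arrays. Metrnl, a secreted protein related to meteorin, stood at -1.61, -1.68 and -1.16 in A384T arrays, against 0.16, 0.82 and 0.21 in WT arrays (-1.88 ± 0.22, adjusted p = 0.0167). The other 2 probe sets of Metrnl showed -1.52, called with the block alone, and -0.03. Map6, a protein that stabilises microtubules, stood at -2.63, -2.60 and -2.93 in A384T arrays, against -0.70, -1.39 and -1.51 in WT arrays (-1.52 ± 0.21, adjusted p = 0.0363). Map6 was below mock in both, by 2.69 in A384T and by 1.17 in WT. Gpr183, the oxysterol receptor EBI2 that positions lymphocytes in lymphoid tissue, stood at -1.33, -1.62 and -1.11 in A384T arrays, against -0.42, -0.38 and -0.23 in WT arrays (-1.01 ± 0.14, adjusted p = 0.0418). Rassf4 fell by 1.11, the growth factor receptor gene Fgfr1 by 0.99 and the proprotein convertase gene Furin by 0.69 (adjusted p = 0.049, 0.0251 and 0.0251). Without 1 array the highest adjusted p was 0.0865 for Metrnl, 0.135 for Map6, 0.188 for Gpr183, 0.223 for Rassf4, 0.109 for Fgfr1 and 0.119 for Furin. With the block these were called every time except Rassf4 (up to 0.0746) and Furin (up to 0.07), each called in 3 of 6 such fits.

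**Figure D3:**
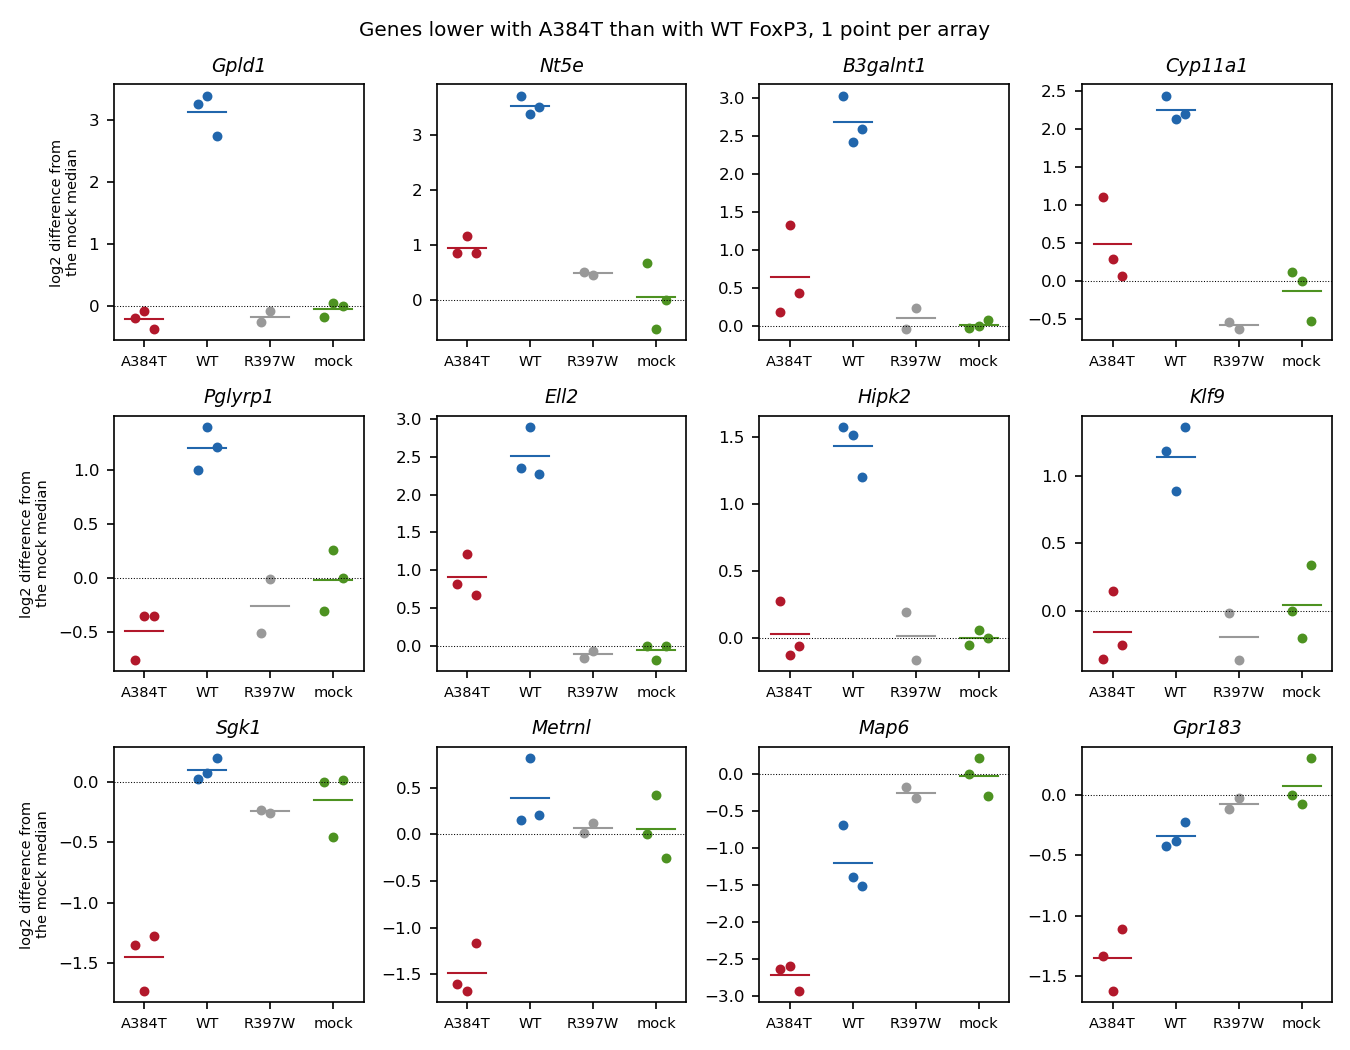
The 12 panels show genes called lower with A384T than with WT, drawn as in the plot of genes called higher: points are arrays, lines are group means, and the y axis is the log2 difference from the mock median. In the first 8 panels the WT points lie above the other 3 groups. In Sgk1, Metrnl, Map6 and Gpr183 the A384T points lie lowest, below -1 in every array.

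Of the 20 probe sets called higher, the A384T mean lay farther from mock in 10 and the WT mean in 10. Of the 26 called lower, A384T lay farther from mock in 9 and WT in 17. With the block the counts were 59 and 52 among those higher, and 39 and 82 among those lower. R397W, the other mutant, lay within 0.6 of mock in both arrays for Mpzl2, Car2, Gpld1, Nt5e and Sgk1, and below mock at -1.33 and -0.81 for Rtp4.

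Many differences were clear only between arrays of the same number. Cxcr3, the chemokine receptor that guides T cells to sites of interferon-gamma responses, stood at 2.07, 2.15 and 1.27 in A384T arrays, against 0.68, 1.21 and -0.34 in WT arrays. Both groups were lowest in array 3, and A384T exceeded WT in each number (1.32 ± 0.37 without the block, limma adjusted p = 0.593; SE 0.15 and adjusted p = 0.00389 with it). Batf, an AP-1 family factor needed for the effector forms of Treg cells found in tissues, stood at -1.01, -0.65 and -0.49 in A384T arrays, against -0.14, 0.55 and 0.47 in WT arrays. Array 1 was the lowest of both groups, and of mock at -0.87, 0.04 and 0.00. The difference of -1.01 had an SE of 0.32 without the block (adjusted p = 0.8) and of 0.12 with it (adjusted p = 0.00539). With the block, Cxcr3 and Batf were called without any of the 6 arrays, with adjusted p up to 0.0368 and 0.0482. Without the arrays numbered 1, neither was called.

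Among the 10 largest rises called with the block alone were Asb2, a subunit of a ubiquitin ligase (2.00), Plac8 (1.82), Myl10, a myosin light chain (1.76), Xdh, the xanthine dehydrogenase of purine breakdown (1.74), and Fcmr, a receptor for IgM (1.42). Plac8 stood at 2.19, 2.23 and 0.74 in A384T arrays, against -0.24, 0.52 and -0.59 in WT arrays. Here, too, array 3 was the lowest of each group (limma adjusted p = 0.003 with the block and 0.296 without it). Asb2 stood at 2.79, 1.57 and 1.58 in A384T arrays, against 0.13, 0.14 and -0.34 in WT arrays (adjusted p = 0.00367 with the block and 0.0598 without it). Among the 10 largest falls of this kind were Slamf9, a receptor of the SLAM family (-1.54), Cyp4f18, an enzyme that breaks down leukotriene B4 (-1.42), Id1, an inhibitor of helix-loop-helix factors (-1.42), and the inhibitory receptor Cd200r1 (-1.35). Cyp4f18 stood at 4.43, 3.67 and 3.54 in A384T arrays, against 5.39, 5.49 and 5.04 in WT arrays, far above mock in both groups (adjusted p = 0.0443 with the block and 0.19 without it). Cd24a, a GPI-anchored glycoprotein, stood at 1.44, 2.03 and 1.89 in A384T arrays, against 2.76, 3.44 and 3.02 in WT arrays (adjusted p = 0.0016 with the block and 0.305 without it). With the block, Asb2, Plac8, Xdh, Slamf9 and Cd24a were called without any of the 6 arrays. Leaving out 1 array took the adjusted p to 0.0824 for Myl10, 0.164 for Fcmr, 0.228 for Cyp4f18, 0.257 for Id1 and 0.177 for Cd200r1.

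**Figure D4:**
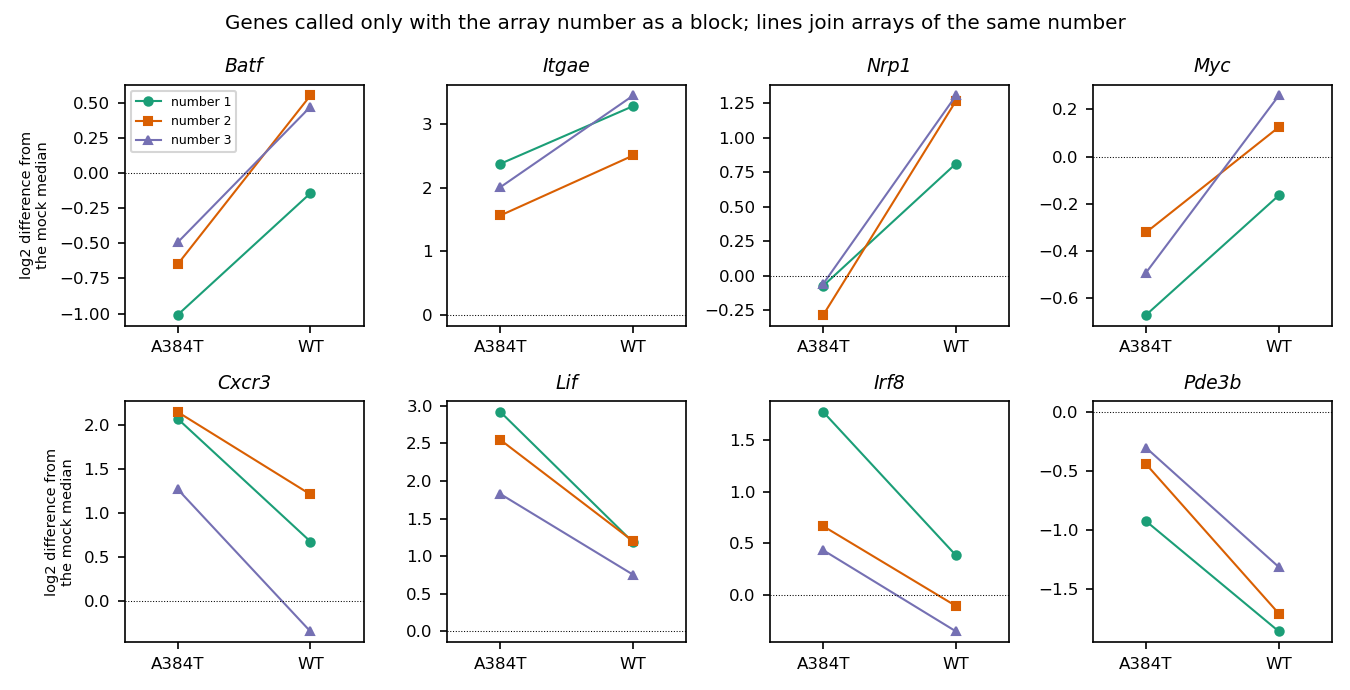
The 8 panels show genes called only with the array number as a block. Each line joins the A384T array, at left, to the WT array of the same number; the y axis is the log2 difference from the mock median. The lines run in the same direction in all 3 numbers of every panel, a pattern that the fit with the block favours. They run upward for Batf, Itgae, Nrp1 and Myc and downward for Cxcr3, Lif, Irf8 and Pde3b. The numbers differ in height.

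Of genes known to be higher in Treg than in conventional CD4 T cells, 26 were measured, and 0 rose in A384T against WT and 1 fell without the block, Nt5e, where 0.11% of all genes were called lower. With the block 5 fell, where 0.456% of all genes did: Nt5e, Nrp1, Itgae, Entpd1 and Icos. The median difference was -0.27, beside 0.0056 over all 18193 genes, and 18 of 26 lay below 0. The median difference from mock was 1.26 in A384T and 1.58 in WT. Nrp1, a co-receptor for semaphorins, stood at -0.07, -0.28 and -0.06 in A384T arrays, against 0.81, 1.27 and 1.31 in WT arrays (limma adjusted p = 0.0227 with the block and 0.0933 without it). A384T lay near mock and WT above it. Itgae, the CD103 integrin chain that binds E-cadherin of epithelium, stood at 2.37, 1.56 and 2.01 in A384T arrays, against 3.28, 2.50 and 3.45 in WT arrays (adjusted p = 0.0181 with the block and 0.369 without it). Entpd1, the gene of CD39, which feeds AMP to CD73, differed by -0.67 (adjusted p = 0.0434 with the block and 0.587 without it). From mock it differed by -0.44 in A384T and 0.22 in WT (limma adjusted p = 0.373 and 0.796 without the block). The other probe sets of Entpd1 showed -0.33 and -0.10, not called in either fit. Icos, a costimulatory receptor, differed by -0.52 (adjusted p = 0.0352 with the block and 0.725 without it). From mock it differed by -0.47 in A384T and 0.05 in WT (limma adjusted p = 0.225 and 0.969 without the block). The other probe sets of Icos showed -0.44 and -0.60, not called in either fit. Unlike Nt5e, Nrp1 and Itgae, neither Entpd1 nor Icos was called over mock in WT. Leaving out 1 array took the blocked adjusted p to 0.158 for Nrp1, 0.108 for Itgae, 0.243 for Entpd1 and 0.221 for Icos.

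The genes of CD25 and CTLA-4 were not called between the forms. Il2ra stood at 2.37, 2.03 and 1.99 in A384T arrays, against 2.30, 1.95 and 1.95 in WT arrays, and Ctla4 at 2.01, 2.05 and 1.59 in A384T arrays, against 2.13, 1.73 and 1.77 in WT arrays. Each was called over mock in both forms. The differences between the forms, 0.06 ± 0.15 for Il2ra and 0.01 ± 0.20 for Ctla4 (SE, n = 3 each), were within their errors, and their sign turned under some settings. Ikzf2, the Treg factor Helios, stood at 1.61, 1.02 and 1.56 in A384T arrays, against 1.98, 1.62 and 2.26 in WT arrays, with no overlap and no call (-0.56 ± 0.20, limma adjusted p = 0.959, and 0.0905 with the block). Among 15 genes usually low in Treg cells, 0 were called without the block and 2 rose with it (all genes, 0.451%), with a median difference of 0.17. They were Pde3b, a cyclic nucleotide phosphodiesterase (1.07, adjusted p = 0.00539 with the block and 0.0756 without it), and Igfbp4, which binds insulin-like growth factors (1.02, adjusted p = 0.0209 and 0.177). All 6 probe sets of Igfbp4 had the same sign, and 1 was called with the block. Leaving out 1 array took the blocked adjusted p to 0.128 for Igfbp4, while Pde3b stayed called, at up to 0.0482.

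For 24 genes of tissue Treg cells and of BATF dependence, 0 were called without the block (0.203% of all genes were), and 3 fell with it (all genes, 0.456%): Itgae, Batf and the skin-homing chemokine receptor gene Ccr4. The median difference was -0.26, and 21 of 24 lay below 0, beside 51.5% of all genes that lay above 0. Ccr4 stood at 0.34, 0.92 and 0.81 in A384T arrays, against 0.88, 1.41 and 1.54 in WT arrays, ranges that overlapped (-0.59 ± 0.23, limma adjusted p = 1 without the block and 0.0312 with it). Gata3, a factor of Th2 and tissue Treg cells, differed by -0.07 ± 0.30. Calls in the lists that follow stand against 0.907% of all genes called with the block in either direction. Among 18 AP-1, BATF and IRF factors, 0 were called without the block, and with it Batf fell and Irf8, a factor of myeloid and lymphoid cells, rose (0.98, adjusted p = 0.0387 with the block and 0.916 without it). Irf4, which partners BATF on DNA, stood at 3.30, 2.85 and 1.66 in A384T arrays, against 2.98, 1.93 and 1.81 in WT arrays (0.37 ± 0.41). Its groups overlapped, and both lay above mock. Of 21 targets of IL-2 and STAT5, 0 were called without the block, and with it Lif, a cytokine of the IL-6 family, rose (1.38, adjusted p = 0.0105, against 0.107 without it) and Myc fell (-0.57, adjusted p = 0.0295, against 0.417 without it). Of 19 genes induced early by T cell receptor stimulation, 16 lay below 0 with a median of -0.26. The median was 0.04 in the arrays numbered 1, against -0.45 and -0.30 in numbers 2 and 3, and Myc was the call, with the block. Without 1 array the blocked adjusted p reached 0.212 for Ccr4, 0.201 for Irf8, 0.0723 for Lif and 0.212 for Myc.

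Interferon-stimulated genes lay mostly above 0 in the difference A384T minus WT. Of 25 measured, 2 rose without the block, Rtp4 and Irf7, where 0.0934% of all genes did. With the block 4 rose, adding Ifit1 and Zbp1, where 0.451% of all genes did, and 0 fell in either fit. The median difference was 0.44, and 21 of 25 lay above 0, with Gbp3 the lowest at -0.90. The median difference from mock was -0.17 in A384T and -0.42 in WT. Rtp4, a chaperone of membrane receptors, stood at -0.65, -0.77 and -0.73 in A384T arrays, against -1.79, -2.65 and -2.15 in WT arrays (1.48 ± 0.21, limma adjusted p = 0.037). Irf7, the factor that amplifies type I interferon, stood at -0.66, -0.84 and -0.59 in A384T arrays, against -1.74, -1.40 and -1.82 in WT arrays (0.96 ± 0.14, adjusted p = 0.0436). In both genes A384T lay between mock and WT, and the other probe set of Rtp4 showed -0.03. Ifit1, which binds viral RNA, stood at -1.32, -1.64 and -0.70 in A384T arrays, against -2.43, -2.57 and -1.93 in WT arrays (1.09 ± 0.28, adjusted p = 0.0261 with the block and 0.469 without it). Zbp1, a sensor of left-handed nucleic acids, differed by 0.63 (adjusted p = 0.0321 with the block and 0.874 without it). Outside the list, Gbp6, an interferon-induced GTPase, stood at 0.47, 0.81 and -0.12 in A384T arrays, against -1.11, -1.50 and -1.13 in WT arrays (1.63 ± 0.24, adjusted p = 0.0485). Without 1 array the highest adjusted p was 0.145 for Rtp4, 0.208 for Irf7 and 0.228 for Gbp6, and with the block 0.0661, 0.0688 and 0.0761, 0.151 for Ifit1 and 0.196 for Zbp1.

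Windows of Ifit1 and Sgk1 show the core of the interferon-stimulated response element, 2 copies of GAAA with any 2 bases between them on either strand, in a gene that rose and in a gene that fell. Both come from RefSeq on the plus strand of GRCm38.p6, chr19:34640639-34640888 for Ifit1 and chr10:21881934-21882183 for 1 of 6 annotated starts of Sgk1, and the capitals mark the core, which here lies on the reverse strand. In Ifit1 it lies at positions -104 to -95 and -85 to -76 from the start, and in Sgk1 at -111 to -102.
Ifit1: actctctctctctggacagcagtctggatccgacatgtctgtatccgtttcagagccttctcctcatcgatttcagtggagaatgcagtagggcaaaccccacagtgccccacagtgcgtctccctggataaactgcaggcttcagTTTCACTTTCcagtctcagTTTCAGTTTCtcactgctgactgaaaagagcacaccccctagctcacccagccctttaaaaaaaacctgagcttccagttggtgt
Sgk1: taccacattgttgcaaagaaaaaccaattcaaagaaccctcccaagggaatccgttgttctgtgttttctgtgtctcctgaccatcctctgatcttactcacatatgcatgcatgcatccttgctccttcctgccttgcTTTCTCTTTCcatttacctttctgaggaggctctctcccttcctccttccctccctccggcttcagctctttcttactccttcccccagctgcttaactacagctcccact
The core occurred in 47.8% of 23 windows of the interferon-stimulated genes measured, against 3.44% of all windows. It occurred in 7.95% of the windows of genes called higher in A384T and in 1.77% of those of genes called lower.

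Counts for the other T cell lists stand against 0.203% of all genes called without the block and 0.907% with it. The lists share members, so calls such as Itgae, Batf and Ccr4 recur and are not separate findings. Of 15 Th1 genes, 0 were called without the block, and with it Cxcr3 rose and Runx3, a repressor of Il4 in Th1 cells, fell (-0.63, limma adjusted p = 0.0294, against 0.183 without it). Leaving out 1 array took the blocked adjusted p of Runx3 to 0.212. Of 15 Th2 genes and 10 Th17 genes, the calls were Ccr4 and Batf, with the block. Among 20 chemokine and homing receptors, Itga4 rose in both fits and Cxcr3 with the block, while Itgae and Ccr4 fell with the block. Of 16 inhibitory receptors and ligands, Nt5e fell in both fits and Entpd1 and Cd200r1 with the block. Of 25 costimulatory and TNF receptor genes, the call was Icos, with the block. Of 27 cytokine genes, Lif was called, with the block. Il4 stood at -2.05, -1.60 and -1.51 in A384T arrays, against -1.73, -2.41 and -2.03 in WT arrays, overlapping and below mock in both forms (0.33 ± 0.20, adjusted p = 1). Il2 differed by -0.11 ± 0.11 and Ifng by 0.09 ± 0.12, each within 2 SE. Il7r, the IL-7 receptor chain, stood at -1.77, -0.56 and -0.51 in A384T arrays, against -0.97, -0.23 and -0.30 in WT arrays (-0.44 ± 0.34, not called). Of 14 cytotoxic granule genes and 11 NK-type lectin receptors, 0 were called in either fit, which at the share of all genes called says nothing particular of them.

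**Figure D5:**
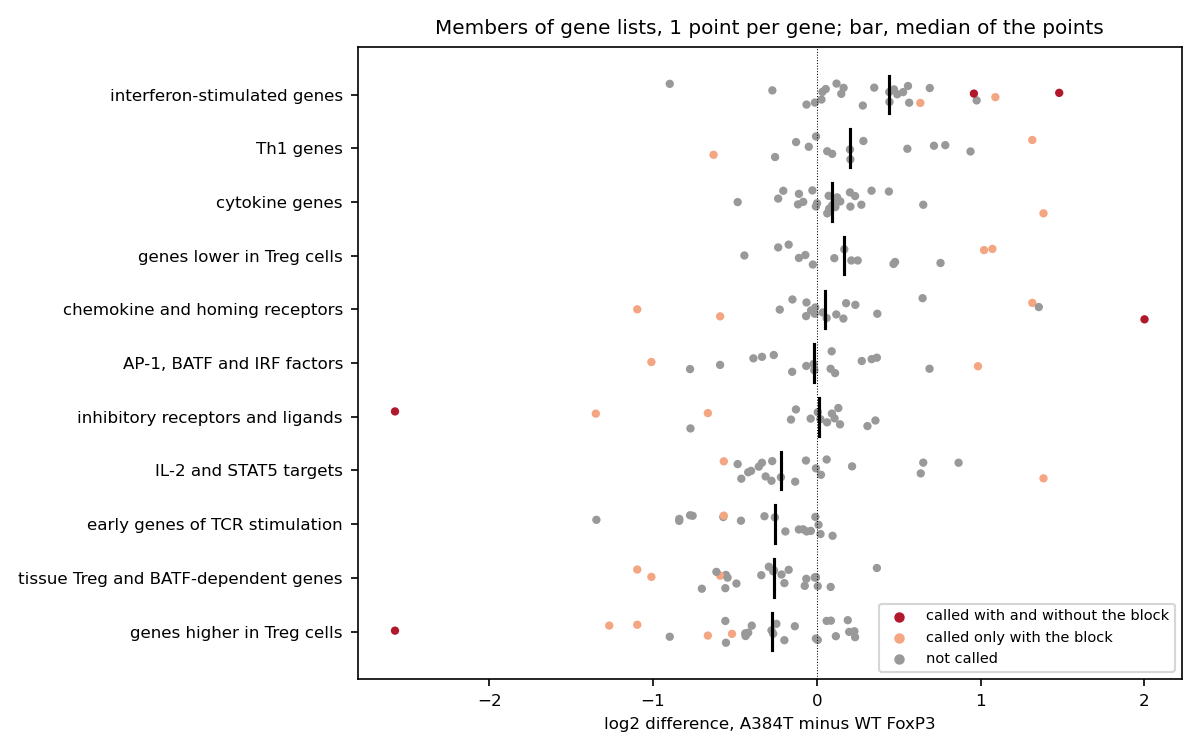
Members of 11 gene lists, 1 point per gene, against the log2 difference A384T minus WT on the x axis; the bar is the median of the points. Red points were called in both fits and orange points only with the block. The interferon-stimulated genes lie mostly right of 0, and the Treg-high, tissue Treg and early T cell receptor lists mostly left of it, with Nt5e at -2.57 the farthest.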

How the data were processed

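Total RNA of 11 sorted cell samples was labelled with biotin and hybridised to Affymetrix arrays. The deposited values are on the log2 scale; per the submitters' processing notes they come from RMA; the sources used here give no version. Tested on the file, the median of the 3 mock arrays is 0 in every probe set, so the authors had centred each probe set on mock, and no intensity or detection call remains. The log base is taken as 2. Of 45101 probe sets, 64 controls were left out. Genes were named from the platform annotation: 34945 probe sets have 1 symbol, 932 several and 9160 none, and 34741 matched RefSeq.

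Group means of all 11 arrays were fitted with limma 3.58.1 in R 4.3.3 (lmFit, eBayes; 7 residual degrees of freedom, 5 with the block), and p-values were adjusted by Benjamini-Hochberg. The title numbers were taken to pair arrays, since deviations of same-numbered A384T and WT arrays correlated above 0.1 in all 3 numbers. That limit does not single out this pairing. A384T array 2 correlated more with WT array 3 (0.28) than with WT array 2 (0.18). A384T array 3 with WT array 2, at 0.13, passed the limit too. The fit was tested on simulated data. The genes described were the largest 15 rises and 15 falls called without the block, the largest 10 each way called with the block alone, a short list of T cell genes, and called members of 31 gene lists. A few other genes (Aqp9, Synj2, Fdx1, Aven, Rragd, Fgfr1, Furin, Flot2, Gbp3) were named after their values were seen. A gene stands by its called probe set with the largest difference, or by its probe set with the largest SD, and list medians use the latter. Of 448 listed genes, 410 were measured, and 79 of the 448 stood in more than 1 list. The comparison, the lists and the tests were chosen with earlier results of these data known.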

Additional observations from a re-analysis of the deposited data

How the results depend on the processing

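The counts, 20 probe sets higher and 26 lower in A384T without the block, moved with most settings. They were 111 and 121 with the replicate block, 0 and 2 with only the 6 A384T and WT arrays, 67 and 81 with the replicate block and only these 6, and 10 and 12 with a trended, robust prior. Counting 1 probe set per gene gave 13 and 18, and centring arrays on their medians gave 18 and 25. Without 1 array or array number, the fit without the block gave 0 to 14 higher and 0 to 12 lower. The same with the replicate block, chosen after seeing the data, gave 10 to 116 and 17 to 202. Fewer arrays and residual degrees of freedom enter these fits by construction; beyond that the cause was not tested. The replicate block lost none of the 46 calls. Of the differences named, sign changes occurred in 3 that were not called. Il2ra was -0.041 with the mean of its probe sets and lay between -0.059 and 0.18 without 1 array or number. Ctla4 lay between -0.21 and 0.15 in such fits, and Gata3 between -0.32 and 0.16. Levels and signal over background cannot be read from these values.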

Other observations

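Counts for genes of metabolism and cell maintenance stand against 0.203% of all genes called between A384T and WT without the block and 0.907% with it. Of 19 oxidative phosphorylation genes, 16 of cholesterol synthesis, 16 of stress and the unfolded protein response and 16 T cell receptor signalling components, 0 were called in either limma fit, with medians of -0.05, -0.06, 0.04 and 0.03. Of 22 glycolysis and hypoxia genes, 0 were called without the block, and Epas1, the hypoxia-inducible factor 2 alpha, fell with it. It stood at -3.65, -3.17 and -2.93 in A384T arrays, against -2.43, -2.44 and -1.76 in WT arrays, far below mock in both (-1.04 ± 0.21, limma adjusted p = 0.0292 with the block and 0.219 without it). The other probe set of Epas1 showed 0.03, and leaving out 1 array took the blocked adjusted p of the called one to 0.189. Of 13 p53 targets, the call was Cdkn1a, the cell cycle inhibitor p21, which stood at 1.24, 0.25 and -0.06 in A384T arrays, against 2.08, 1.84 and 1.35 in WT arrays (-1.28 ± 0.31, adjusted p = 0.021 with the block and 0.416 without it). Leaving out 1 array took the blocked adjusted p of Cdkn1a to 0.127. Of 14 naive and memory T cell genes, Igfbp4 was the call, higher with the block.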
